A study of Mus musculus with 6 samples.

Results

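The nuclear-encoded subunits of oxidative phosphorylation were followed in epithelial cells isolated from the small intestine of mouse embryos at E18.5 (days of embryonic development). Members were chosen by gene symbol: genes named Nduf with a, b, c, s or v and a number, Sdha to Sdhd, and genes whose names begin with Uqcr, with Cox and a number from 4 to 8, or with Atp5. Of 19938 genes measured, 81 matched, of which 35 belong by name to complex I, 4 to complex II, 8 to complex III, 17 to complex IV and 17 to complex V. Another 4 matching symbols (Cox7c, Ndufb4, Ndufb4b and Ndufs5-ps) lie only on probe sets shared with another gene and were not analysed here. Each level is the authors' log2 value for 1 probe set, a group of probes spread along a gene, and no member value on any array was at 0.

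The 6 arrays held RNA of 3 control samples and 3 samples from mice with a double conditional knockout of Gata4 and Gata6, which encode GATA-binding transcription factors active in gut endoderm. For the Cre driver, the strain, the genotype of the controls and the deleted exons, the sources used here give nothing. No label says whether each array stands for its own animal, and the p-values then reflect the scatter of these 6 samples alone, part or all of which may be technical. Changes are given as arrays labelled cKO minus control, with the standard error (n = 3 arrays against 3). An adjusted p is that of limma with Benjamini-Hochberg adjustment over all 19938 genes.

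Oxidative phosphorylation takes electrons from nutrients and uses them to make ATP in the inner mitochondrial membrane. Complex I (NADH dehydrogenase) and complex II (succinate dehydrogenase) pass electrons to ubiquinone, complex III (cytochrome bc1) passes them to cytochrome c, and complex IV (cytochrome c oxidase) to oxygen. Protons pumped on the way return through complex V, the ATP synthase. Most subunits are encoded in the nucleus and imported, a small core is encoded by mitochondrial DNA, and absorptive enterocytes, which spend ATP on nutrient and ion transport, are rich in mitochondria.

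Both targeted transcripts gave higher signal, not lower, under the cKO label. Gata4 stood at 10.95, 10.93 and 10.96 on the control arrays and at 11.34, 11.39 and 11.51 on the arrays labelled cKO, and Gata6 at 12.23, 12.28 and 12.27 against 12.72, 12.69 and 12.72 (adjusted p = 0.0101 and 0.0067 by limma). Both calls held with any 1 array left out. A probe set also counts signal from exons outside a deletion, so every direction below rests on the labels. The 12 epithelial markers averaged 11.92 to 11.93 on the control arrays and 12.02 to 12.16 on the arrays labelled cKO. Of these markers, Krt19, Epcam and Krt8 were called higher and 0 lower, beside 5.52% and 7.42% of all genes. Krt19 kept its call with any 1 array left out, Epcam and Krt8 only without cKO 2. Array cKO 2 stood apart with an average of 12.9 over 11 hepatocyte markers, against 8.23 to 11.2 on the other 5 arrays, and of 9.97 over 10 erythroid markers, against 6.90 to 8.20. It was also highest for the 12 leukocyte markers (9.59, against 7.60 to 8.30) and the 12 endothelial markers (8.61, against 7.22 to 8.14). Of the leukocyte markers, 10 of 12 had a change above 0, with a median of 0.46, or −0.115 without cKO 2. The other 2, Csf1r and Lcp1, were called lower on the arrays labelled cKO, as were 7.42% of all genes. Both calls were lost without control 2, control 3 or cKO 1, that of Csf1r also without control 1 and that of Lcp1 without cKO 3 (highest adjusted p 0.0646 and 0.0902). Results with the mean hepatocyte and erythroid level as a covariate are given beside Ndufv3 and Cox7a1, the subunit genes called. Of the called genes of other lists named below, Esrrg, Coq2 and Actg2 lost their call with this covariate (adjusted p = 0.051, 0.0678 and 0.0523 by limma). Fibroblast markers were higher in their means under the cKO label: 11 of 12 had a change above 0, with a median of 1.02, and in 6 of 12 every array labelled cKO was above every control array (14.3% of all genes). Their array averages were 8.21 to 8.87 in controls and 8.73 to 9.82 under cKO. Of the 12, 0 passed under limma and 7 had an unadjusted p under 0.05, beside 26.55% of all genes. With quantile normalization 2 were called higher (5.25% of all genes). With the hepatocyte and erythroid covariate 4 were called higher (6.13% of all genes), and without cKO 3 also 4 (3.62% of all genes). Their part in the subunit results was not tested. The averages of 9 pancreatic markers (7.29 to 10.5, and 9.17 to 10.3) overlapped between the groups, and no marker of any of these lists was at 0.

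Almost all 81 subunit genes had a slightly lower mean on the arrays labelled cKO, but few differences passed the test. The change was below 0 in 79 genes and above 0 in 2, Atp5g2 and Ndufa4l2. Its median was −0.16, a level 10.7% lower, beside a median of −0.01 over all 19938 genes, of which 10484 were below 0. Only Cox7a1 and Ndufv3 fell past an adjusted p of 0.05 and 0 rose, whereas 7.42% of all genes were called lower and 5.52% higher. By the count of calls the subunits were therefore not above the background. How often the test finds changes this small was not measured, and a missing call does not show a missing change. In simulated arrays, where few genes were changed, the test called 0 of 50 genes changed by −0.25 and 9 of 50 changed by −0.5. Those arrays gave 96 calls in all, against 2580 on the real arrays. An adjusted p of 0.05 was thus harder to reach there, so the simulation cannot give the power for the subunits. At an unadjusted p under 0.05 under limma, 24 of the 81 members were lower and 0 were higher. Counted in either direction, this was near the 26.55% of all genes at that p. The share of all genes that were lower at that p was not counted, so the shared direction of the 24 has no background beside it. Of the members, 7 had an adjusted p between 0.05 and 0.1. The 95% interval of the change lay inside a 2-fold difference in either direction for 80 members, the exception being Cox7a1.

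**Figure D1:**
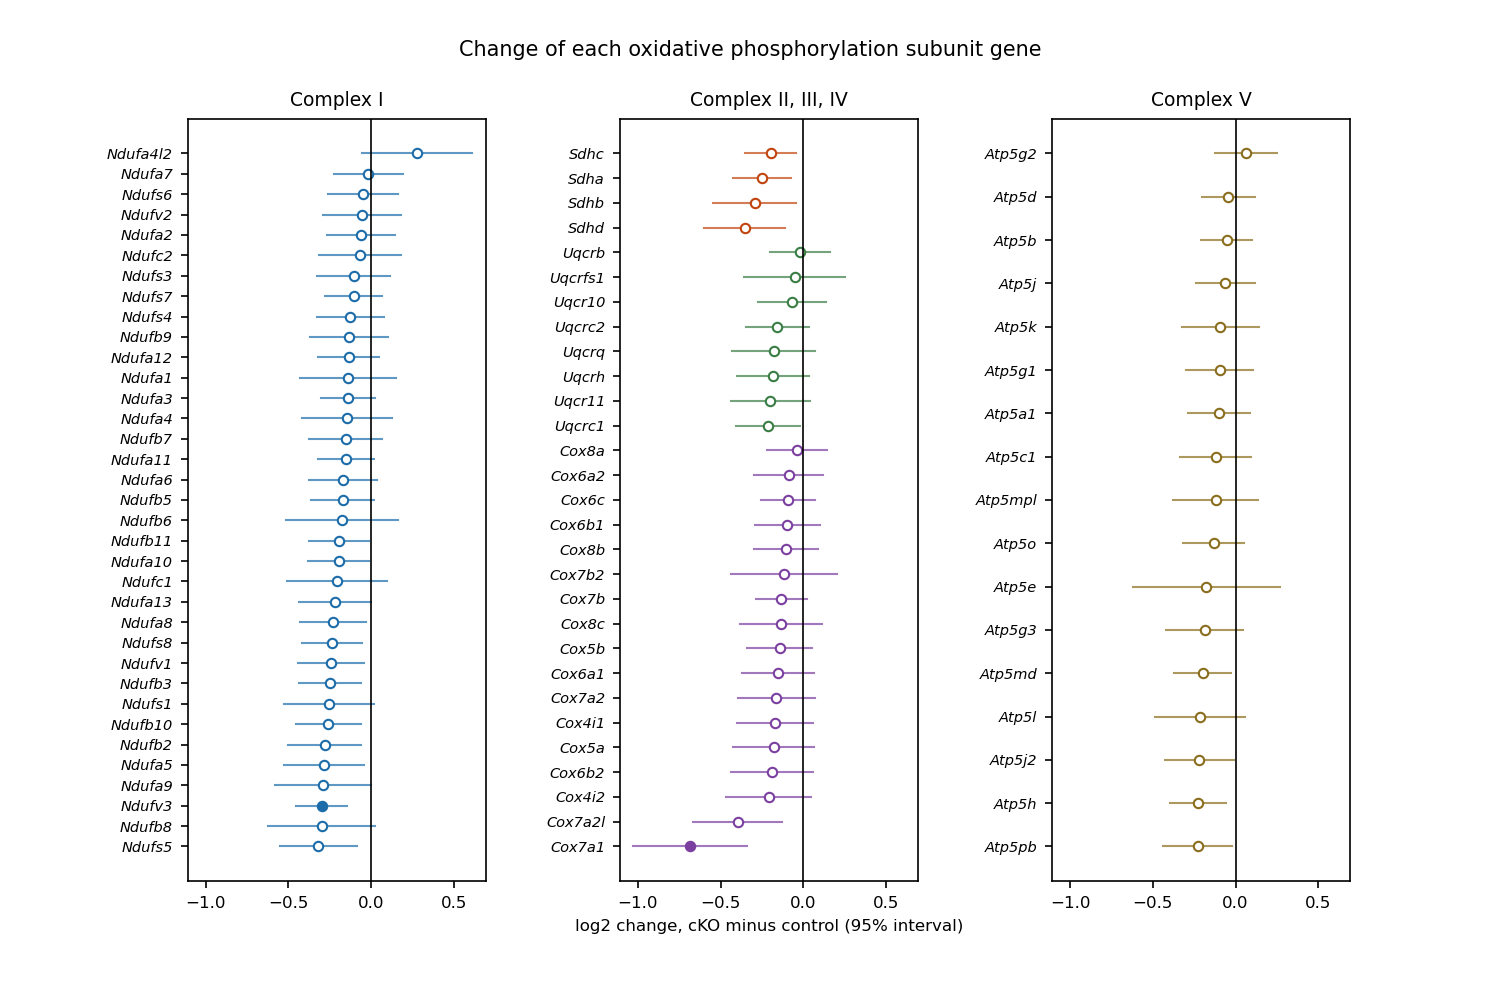
Log2 change, cKO minus control, of each of the 81 subunit genes with its 95% interval from limma, grouped by complex. Filled points passed an adjusted p of 0.05 (Ndufv3 and Cox7a1). Of the 81 points, 79 lie left of 0.

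The spread of the subunit changes was narrow. The middle part of the 81 changes, between the lower and upper quartile, ran from −0.22 to −0.11, against −0.16 to 0.14 over all genes. In 34 members every array labelled cKO was below every control array, and in 0 members every one was above. Over all genes these groupings were met by 18.3% and 14.3%. The count of members all lower depended on the scaling. After quantile normalization, which gives every array the same distribution of levels, it was 16 members, beside 16.7% of all genes. Atp5g2 and Ndufa4l2 were then non-overlapping in the higher direction, beside 15.1% of all genes. With arrays centred on their median it was 30 members, beside 18.3% of all genes. Ndufa4l2 was then non-overlapping in the higher direction, beside 13% of all genes. With quantile normalization the median member change was −0.09 and 13 members were above 0, against −0.17 and 2 with arrays centred on their median. The size of the group difference and the sign of some members thus depended on how the arrays are put on one scale. The median member change stayed below 0 under both.

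**Figure D2:**
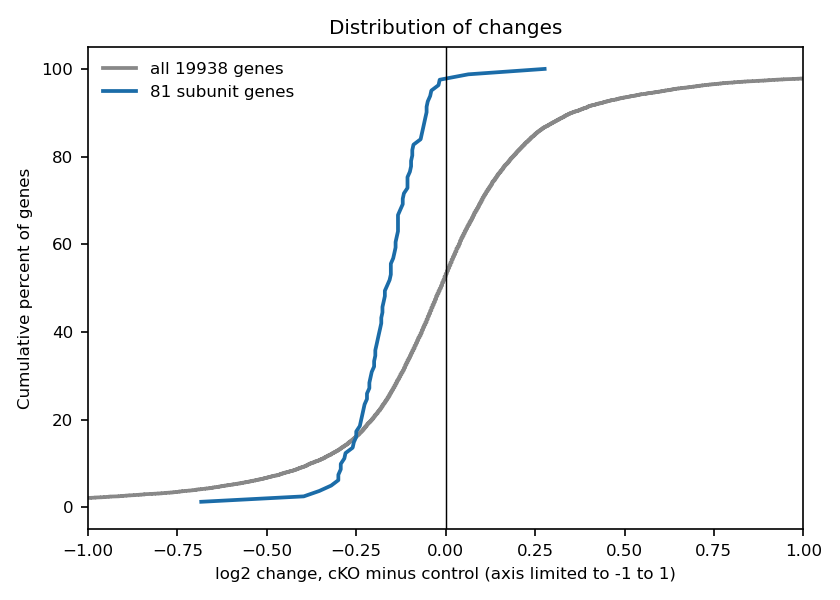
Cumulative percent of genes against log2 change, cKO minus control, for all 19938 genes and for the 81 subunit genes. The subunit curve is steep and lies mostly between −0.22 and −0.11, left of the curve of all genes near 0.

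The upper levels of all genes differed between the arrays as well. The level below which 90% of all genes lay was 10.71, 10.71 and 10.74 on the control arrays, and 10.64, 10.73 and 10.63 on cKO 1, cKO 2 and cKO 3. The level below which 95% lay was 11.33, 11.33 and 11.38 on the control arrays and 11.24, 11.30 and 11.22 on the arrays labelled cKO, every one below every control array. The part of this in the lower subunit levels was tested only through the quantile normalization given above. In RNA of a mixed cell preparation, fewer cells of a type and less RNA per cell cannot be told apart.

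Array by array, the subunit genes moved together. The median member stood at −0.03, 0.12 and 0.145 from its own mean over the 6 arrays on controls 1, 2 and 3, and at −0.12, −0.08 and −0.04 on cKO 1, cKO 2 and cKO 3. Control 1 thus lay close to the arrays labelled cKO, and controls 2 and 3 lay above all others. Control 3 was the highest array for 52 members (64.2%, against 21.3% of all genes) and cKO 1 the lowest for 45 (55.6%, against 14.2%), where ties went to the first array. Left out in turn, control 1 moved the median member change to −0.22, control 2 to −0.13 and control 3 to −0.12. No member was called lower without control 2, control 3, cKO 2 or cKO 3, where 4.23% to 6.63% of all genes were.

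**Figure D3:**
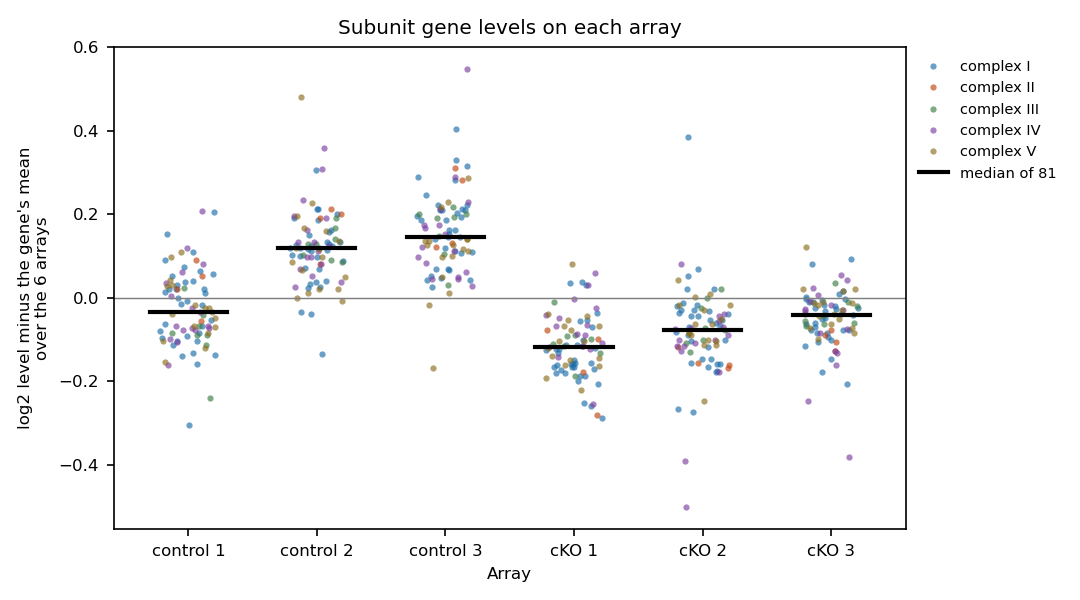
Log2 level of each of the 81 subunit genes on each array, minus the gene's mean over the 6 arrays, coloured by complex, with the median as a black bar. The medians are 0.12 and 0.145 on controls 2 and 3, and −0.03 on control 1, near the −0.12 to −0.04 of the 3 arrays labelled cKO.

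In complex I, 34 of 35 genes had a change below 0, with a median of −0.17, and 1 of them was called lower. The mean over the 35 genes was 10.64, 10.77 and 10.83 on the control arrays and 10.53, 10.60 and 10.61 on the arrays labelled cKO, so the groups did not overlap. The complex has a matrix arm, made of an N module that oxidises NADH and a Q module that reduces ubiquinone, and a membrane arm that pumps protons. Median changes were −0.13 over 10 N genes, −0.24 over 5 Q genes, −0.20 over 9 genes of the proximal membrane arm and −0.19 over 9 of the distal membrane arm. No difference between modules was tested.

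Ndufv3, a small accessory subunit of the N module, was the complex I gene that passed. It stood at 11.23, 11.21 and 11.24 on the control arrays and at 10.92, 10.93 and 10.93 on the arrays labelled cKO. The groups were far apart relative to an unusually small spread within them (SD 0.015 and 0.0058). The change was −0.30 ± 0.063 (1.23-fold lower, adjusted p = 0.0276 by limma). With the mean hepatocyte and erythroid level as a covariate it was −0.30 (adjusted p = 0.0463). With any 1 array left out the change was −0.31 to −0.29, but the adjusted p was 0.0677 to 0.0941 and the call was lost each time, as it was under quantile normalization (−0.22, adjusted p = 0.123).

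The electron entry subunits of the N module differed in size of change, and none passed. Ndufv1, which binds NADH and flavin, stood at 11.11, 11.22 and 11.30 on the control arrays and at 10.89, 11 and 11.02 on the arrays labelled cKO, without overlap (change −0.24 ± 0.083, adjusted p = 0.122 by limma). Ndufs1, which carries iron-sulfur clusters, stood at 10.22, 10.44 and 10.57 and at 10.03, 10.20 and 10.23, with cKO 3 above control 1 (−0.26 ± 0.11, adjusted p = 0.212). Ndufv2, another iron-sulfur subunit, had overlapping groups and a change of −0.06 ± 0.0985 (adjusted p = 0.77). Ndufa7 and Ndufs6 had changes of −0.02 and −0.05. In the Q module the values were −0.28 for Ndufa5, −0.29 for Ndufa9, −0.24 for Ndufs8, and −0.11 for both Ndufs3 and Ndufs7, and none passed.

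Ndufs5, an accessory subunit of the membrane arm, had the largest difference in complex I. Its levels were 8.66, 8.73 and 8.88 on the control arrays and 8.56, 8.33 and 8.42 on the arrays labelled cKO. All of the second group were below the first, yet the change of −0.32 ± 0.097 did not pass (adjusted p = 0.0859 by limma). In the distal arm, changes ran from −0.30 (Ndufb8) to −0.13 (Ndufb9). In the proximal arm they ran from the −0.32 of Ndufs5 to −0.07 (Ndufc2).

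Ndufa4 and its relative Ndufa4l2 are named after complex I, although the Ndufa4 protein is now placed in complex IV. Ndufa4 stood at 10.50, 10.79 and 10.85 on the control arrays and at 10.46, 10.62 and 10.62 on the arrays labelled cKO (change −0.15 ± 0.11, adjusted p = 0.48 by limma). Ndufa4l2, known as a gene induced by low oxygen, stood at 7.02, 7.19 and 7.35 and at 7.36, 7.71 and 7.32. The groups overlapped through cKO 3, and the change of 0.28 ± 0.14 did not pass (adjusted p = 0.269). The highest Ndufa4l2 value was on cKO 2, the array with the most hepatocyte, erythroid, leukocyte and endothelial signal. Without cKO 2 the change was 0.15 (adjusted p = 0.507 by limma), and with the hepatocyte and erythroid covariate it was 0.26 (adjusted p = 0.177). The part of that signal in the Ndufa4l2 change was not tested.

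Complex II is also an enzyme of the tricarboxylic acid cycle. All 4 of its genes were lower on every array labelled cKO than on any control array, a grouping met by 18.3% of all genes. Of the 4, 0 passed the test. Sdha, the flavoprotein that oxidises succinate, stood at 11.84, 11.98 and 11.92 on the control arrays and at 11.71, 11.62 and 11.66 on the arrays labelled cKO (change −0.25 ± 0.073, adjusted p = 0.0797 by limma). Sdhb, the iron-sulfur subunit, stood at 11.21, 11.48 and 11.55 and at 11.09, 11.11 and 11.16 (−0.29 ± 0.10, adjusted p = 0.132). In Sdhb the nearest arrays of the groups were control 1 and cKO 3.

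The membrane anchor genes of complex II gave the same order. Sdhc stood at 12.09, 12.08 and 12.12 on the control arrays and at 11.90, 11.88 and 11.92 on the arrays labelled cKO (−0.20 ± 0.064, adjusted p = 0.107 by limma). Sdhd stood at 11.14, 11.32 and 11.43 and at 10.84, 10.96 and 11.03 (−0.35 ± 0.10, adjusted p = 0.0745). The complex II median of −0.27 was the lowest of the 5 complexes in the main setting and under the other scalings tried, at −0.18 with quantile normalization, but it rests on 4 genes and no difference between complexes was tested. Sdhb was called lower without control 1 (−0.40, adjusted p = 0.0429). Left out of the comparison together, control 3 and cKO 2 left a complex II median of −0.22 with 0 calls.

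In complex III, 8 of 8 genes had a change below 0 with a median of −0.17, and 0 passed. The mean over the 8 genes was 11.31, 11.53 and 11.56 on the control arrays and 11.29, 11.34 and 11.36 on the arrays labelled cKO, so control 1 fell within the range of the other group. Uqcrc1, a core protein of the matrix side, stood at 12.12, 12.20 and 12.29 and at 11.91, 12.02 and 12.04, the only gene of the complex without overlap (−0.21 ± 0.0805, adjusted p = 0.152 by limma). Uqcrfs1, the Rieske iron-sulfur protein, stood at 9.66, 10.03 and 10.09 on the control arrays and at 9.81, 9.92 and 9.89 on the arrays labelled cKO, so that control 1 was the lowest of the 6 arrays (−0.05 ± 0.13, adjusted p = 0.836). Uqcrb, which lies at the ubiquinone site, differed least (−0.02 ± 0.076, with a 95% interval from −0.20 to 0.16). Cyc1, the cytochrome c1 of this complex, is not taken by the symbol rule and had a change of −0.18 (adjusted p = 0.202).

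Complex IV held the largest difference of the whole group. All 17 genes had a change below 0, with a median of −0.14, and Cox7a1 was called lower. Cox7a1 encodes the isoform of subunit 7a typical of heart and skeletal muscle. It stood at 10.14, 10.38 and 10.57 on the control arrays and at 9.88, 9.52 and 9.64 on the arrays labelled cKO. The groups did not overlap, and the difference was larger than the SD within either (0.22 and 0.18). The change was −0.68 ± 0.14 (1.61-fold lower, 95% interval −1.03 to −0.34, adjusted p = 0.0267 by limma). With the hepatocyte and erythroid covariate it was −0.68 (adjusted p = 0.0288). Leaving out single arrays gave −0.80 to −0.58, and removal of control 2, control 3, cKO 2 or cKO 3 ended the call, with a highest adjusted p of 0.0933. Without both control 3 and cKO 2 it was −0.50 (adjusted p = 0.119).

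Muscle markers are given beside Cox7a1, and their part in its difference was not tested. Over 12 markers of smooth, skeletal and cardiac muscle the mean was 7.67 to 7.72 on the control arrays. It was 7.83 to 8.44 on the arrays labelled cKO. Of the 12, 1 was called higher, the smooth muscle actin Actg2, and 0 lower, beside 5.52% and 7.42% of all genes. With 1 array left out, the Actg2 call was kept only without cKO 3. The other muscle isoforms of complex IV did not pass. Cox6a2 stood at 7.98, 8.13 and 8.17 and at 8.08, 8.01 and 7.92 (−0.09 ± 0.086, adjusted p = 0.569 by limma), and Cox8b at 7.42, 7.48 and 7.62 and at 7.45, 7.38 and 7.37 (−0.11 ± 0.081, adjusted p = 0.469). In both genes the groups overlapped.

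The ubiquitous counterpart Cox7a2 stood at 11.50, 11.79 and 11.75 on the control arrays and at 11.49, 11.49 and 11.57 on the arrays labelled cKO, where cKO 3 lay above control 1 (−0.16 ± 0.098, adjusted p = 0.354 by limma). The third relative, Cox7a2l, which links complexes III and IV into supercomplexes, stood at 9.83, 9.72 and 9.91 and at 9.58, 9.23 and 9.46. Its groups did not overlap, and the change of −0.40 ± 0.11 fell short of the threshold (1.32-fold, adjusted p = 0.0691). A second probe set of Cox7a2l gave −0.44 ± 0.10. With every probe set tested on its own, that one passed (adjusted p = 0.0432).

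Testis and lung isoforms of complex IV did not pass the test. Cox4i2, an isoform typical of lung, stood at 7.84, 8.04 and 7.85 and at 7.55, 7.69 and 7.86 (−0.21 ± 0.11, adjusted p = 0.28 by limma). The testis isoforms Cox6b2, Cox7b2 and Cox8c had changes of −0.19, −0.12 and −0.13, with adjusted p of 0.301, 0.642 and 0.477, and their groups overlapped. Without detection calls, it is not known whether these probe sets were above background.

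Among the 10 ubiquitous complex IV genes, changes ran from the −0.40 of Cox7a2l to the −0.04 of Cox8a, and 0 passed under limma, with 1 at an unadjusted p under 0.05. Cox4i1, which carries a regulatory ATP-binding role, stood at 11.45, 11.62 and 11.75 and at 11.40, 11.42 and 11.49 (−0.17 ± 0.095, adjusted p = 0.325). Cox6a1 and Cox6b1 had changes of −0.15 and −0.10, and Cox7b and Cox8a of −0.13 and −0.04. Every array labelled cKO was below every control array in 4 of the 10 genes, beside 18.3% of all genes. These were Cox5b, Cox6c, Cox7a2l and Cox7b, the last at 12.95, 12.94 and 12.92 against 12.78, 12.80 and 12.83.

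**Figure D4:**
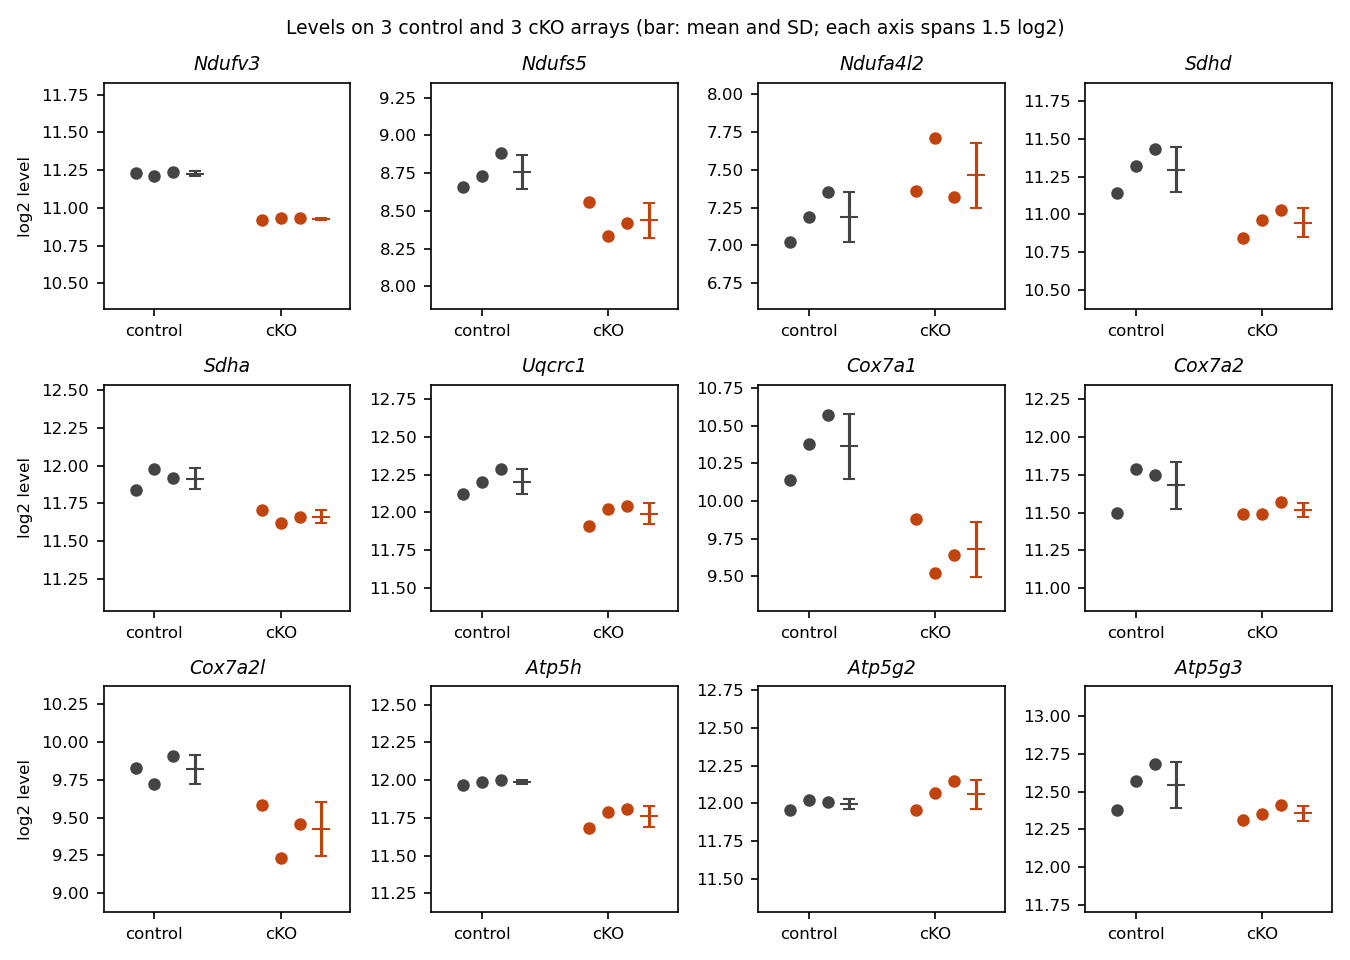
Log2 level of 12 subunit genes on each of the 3 control arrays (grey) and 3 arrays labelled cKO (orange), with mean and SD beside the points. Each axis spans the same 1.5 log2 units, and Cox7a1 shows the widest gap, from a mean of 10.36 to 9.68.

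In complex V, 16 of 17 genes had a change below 0, with a median of −0.12, and 0 passed under limma, with 4 lower and 0 higher at an unadjusted p under 0.05 (26.55% of all genes in either direction). The catalytic head F1 differed little. Atp5b, the catalytic beta subunit, stood at 13.26, 13.23 and 13.28 on the control arrays and at 13.19, 13.20 and 13.22 on the arrays labelled cKO (−0.05 ± 0.064, adjusted p = 0.664). Atp5a1, the alpha subunit, had a change of −0.10 (95% interval −0.29 to 0.09), and the median of the 5 F1 genes was −0.10. The largest difference of the complex was that of Atp5pb, the b subunit of the peripheral stalk, at 11.58, 11.65 and 11.77 against 11.33, 11.50 and 11.48 (−0.23 ± 0.087, adjusted p = 0.155). Atp5h, another stalk subunit, was close to it, at 11.97, 11.99 and 12 against 11.68, 11.79 and 11.81 (−0.23 ± 0.071, adjusted p = 0.0945).

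The membrane ring of complex V is built from subunit c, which 3 genes encode with different import sequences but the same mature protein. Atp5g3 stood at 12.38, 12.57 and 12.68 on the control arrays and at 12.31, 12.35 and 12.41 on the arrays labelled cKO (−0.19 ± 0.096, adjusted p = 0.283 by limma). Atp5g1 had a change of −0.10 ± 0.084 (adjusted p = 0.528). Atp5g2 stood at 11.96, 12.02 and 12.01 and at 11.96, 12.07 and 12.15, level with the controls on cKO 1 and above them on cKO 2 and cKO 3 (0.06 ± 0.078, adjusted p = 0.67). Its 3 probe sets agreed in sign, as did the probe sets of all 16 members that have more than 1. The differences between the 3 genes were not tested.

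Core promoter sequences are shown for the pair of genes that passed, for the nearest gene below the threshold and for Atp5g2, whose change was above 0. Each is the 250 bases before the RefSeq start site in GRCm38.p6, on the gene's own strand and 5′ to 3′: Cox7a1 at chr7:30183921-30184170 (plus), Ndufv3 at chr17:31519865-31520114 (plus), Cox7a2l at chr17:83514334-83514583 (minus) and Atp5g2 at chr15:102671048-102671297 (minus). Capitals mark exact matches, on either strand, to any of 6 motifs: GCGCA and GCGC with 1 base between them for NRF1 and CCGGAAG for the ETS factor GABPA, both known regulators of respiratory genes, AAGATGGC for YY1, AAGGTCA for estrogen-related receptors, AGATAA for GATA factors and GGGCGG for SP factors.
Cox7a1: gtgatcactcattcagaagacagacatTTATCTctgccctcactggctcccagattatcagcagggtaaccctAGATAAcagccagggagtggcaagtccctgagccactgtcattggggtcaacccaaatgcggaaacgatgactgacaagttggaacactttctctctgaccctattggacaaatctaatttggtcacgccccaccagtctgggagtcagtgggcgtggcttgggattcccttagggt
Ndufv3: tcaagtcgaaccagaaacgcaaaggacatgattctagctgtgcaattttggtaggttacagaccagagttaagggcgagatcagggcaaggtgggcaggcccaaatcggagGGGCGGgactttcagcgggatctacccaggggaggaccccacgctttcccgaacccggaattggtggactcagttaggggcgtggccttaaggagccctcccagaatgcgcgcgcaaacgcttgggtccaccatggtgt
Cox7a2l: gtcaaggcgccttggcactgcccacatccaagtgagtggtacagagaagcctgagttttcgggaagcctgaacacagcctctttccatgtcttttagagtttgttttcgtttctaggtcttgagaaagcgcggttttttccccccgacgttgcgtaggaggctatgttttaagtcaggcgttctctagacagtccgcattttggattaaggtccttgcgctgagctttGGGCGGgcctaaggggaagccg
Atp5g2: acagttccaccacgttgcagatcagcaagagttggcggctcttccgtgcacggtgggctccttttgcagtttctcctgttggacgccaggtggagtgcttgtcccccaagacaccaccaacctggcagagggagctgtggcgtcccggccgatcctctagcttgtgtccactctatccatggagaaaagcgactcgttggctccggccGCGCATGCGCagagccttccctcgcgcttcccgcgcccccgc
Cox7a1 held the GATA letters in 2 places, 223 to 218 and 177 to 172 bases before the start, and none of the other motifs. Ndufv3 and Cox7a2l each held the SP letters once, and Atp5g2 held the NRF1 letters 42 to 33 bases before its start. No match overlapped another. A match is a run of letters and not evidence of binding.

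Promoter windows of 300 bases, which add 50 bases after the start, were at hand for 66 of the 81 members, in 71 windows. The NRF1 letters were found in 17 of the 71 windows (23.9%), against 4.6% of all 32851 windows, and the GABPA letters also in 17 (23.9%, against 8.9%). YY1 letters were in 10 (14.1%, against 2.7%) and those of estrogen-related receptors in 7 (9.9%, against 4.7%). The SP letters were in 39.4% of member windows and 35.7% of all. The GATA letters were in 5 member windows (7.0%, against 11.2% of all), those of Cox7a1, Atp5g1, Atp5g3, Ndufa12 and Ndufc2. Of these 5 genes only Cox7a1 passed the test.

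Regulators of respiratory genes were listed together with proteins that copy or bind mitochondrial DNA, such as Polg and Ssbp1. Of 19 measured, 11 had a change above 0 and 8 below, with a median of 0.03. Called lower were 3 (7.42% of all genes) and higher 1, Ssbp1 (5.52% of all genes). Ppargc1a, the coactivator that drives mitochondrial biogenesis, stood at 10.56, 10.27 and 10.50 on the control arrays and at 10, 9.65 and 9.73 on the arrays labelled cKO. The groups did not overlap, and the change was −0.65 ± 0.13 (1.57-fold lower, adjusted p = 0.020 by limma), a call that needed control 1, control 3 and cKO 3 (highest adjusted p without 1 of them 0.0782). Polg, the mitochondrial DNA polymerase, fell from 10.29, 10.38 and 10.63 to 9.35, 9.63 and 9.50 (−0.94 ± 0.12, adjusted p = 0.00432), also past the threshold when any single array was removed.

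Esrrg, an estrogen-related receptor, fell by 0.45 (adjusted p = 0.0456), and Ssbp1, which binds single-stranded mitochondrial DNA, rose by 0.35 (adjusted p = 0.0281). The Esrrg call was kept only without control 3, and the Ssbp1 call was lost with any 1 array left out. Nrf1 had a change of 0.12, Gabpa of 0.04, Yy1 of 0.23 and Esrra of 0.01, and none of these passed (adjusted p of 0.582, 0.833, 0.0899 and 0.961). Ppargc1b (−0.26), Pprc1 (0.39) and Tfam (−0.11) did not pass either, with adjusted p of 0.227, 0.118 and 0.496.

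Of 40 measured assembly factors of the 5 complexes, 2 fell and 0 rose under limma, beside 7.42% and 5.52% of all genes. An unadjusted p under 0.05 was found for 9 of them, beside 26.55% of all genes. Their median change was −0.06, also with quantile normalization, with 13 changes above 0, and the difference from the subunits was not tested. Cox19, a copper-handling factor of complex IV, stood at 10.28, 10.21 and 10.32 on the control arrays and at 9.36, 9.27 and 9.43 on the arrays labelled cKO (−0.92 ± 0.077, 1.89-fold lower, adjusted p = 0.000963). Atpaf2, a chaperone of the F1 head, stood at 10.20, 10.33 and 10.54 and at 9.74, 9.70 and 9.68 (−0.65 ± 0.10, adjusted p = 0.00912). Removing any single array ended neither call.

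Subunits encoded by mitochondrial DNA were represented by COX2 and ND3 alone. COX2, the copper subunit of complex IV, stood at 13.38, 13.17 and 13.20 on the control arrays and at 13.16, 13.13 and 13.17 on the arrays labelled cKO. ND3, of complex I, stood at 13.10, 12.93 and 12.93 and at 12.86, 12.90 and 12.92. Both changes were near −0.1 and neither passed (−0.10 ± 0.082 and −0.09 ± 0.078, adjusted p = 0.518 and 0.513 by limma). On control 1 these transcripts were at their highest, whereas the median nuclear member was lower on control 1 than on controls 2 and 3.

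Electron carriers and their enzymes showed single large differences. Of 19 measured, 1 fell and 2 rose, beside 7.42% and 5.52% of all genes, with a median of −0.14. Sqor, which feeds electrons from sulfide to ubiquinone, rose from 10, 10.10 and 10.16 to 11.61, 11.11 and 11.31 (1.26 ± 0.14, 2.39-fold, adjusted p = 0.00237). Coq4, of ubiquinone synthesis, fell from 9.66, 9.85 and 9.96 to 9.15, 9.15 and 9.24 (−0.64 ± 0.096, adjusted p = 0.00797). Both calls held with each array left out. Coq2 rose by 0.29 (adjusted p = 0.0449), a call lost with any 1 array left out. Cytochrome c itself, Cycs, had a change of −0.13 (adjusted p = 0.269).

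In the tricarboxylic acid cycle, which supplies NADH and succinate, 2 of 19 genes fell and 0 rose under limma, with a median of −0.17. Over all genes, 7.42% were called lower and 5.52% higher. Cs, citrate synthase, stood at 12.48, 12.49 and 12.57 on the control arrays and at 12.18, 12.07 and 12.25 on the arrays labelled cKO (−0.35 ± 0.079, adjusted p = 0.0349). Sucla2, of succinyl-CoA synthetase, stood at 10.23, 10.25 and 10.32 and at 9.91, 9.88 and 9.90 (−0.37 ± 0.067, adjusted p = 0.0156). The Cs call was lost with any 1 array left out, and the Sucla2 call without control 2, control 3 or cKO 3. The list median was −0.09 with quantile normalization, a change of scale like that of the subunits.

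Glycolysis genes had a median of −0.02 over 16 measured, with 2 called lower and 1 higher (7.42% and 5.52% of all genes). Hk2, a hexokinase, rose from 7.13, 7.32 and 7.13 to 8.71, 8.27 and 8.70 (1.37 ± 0.14, adjusted p = 0.00188 by limma). Pfkm, a phosphofructokinase, fell by 0.73 (adjusted p = 0.00355) and Pklr, the liver-type pyruvate kinase, by 0.48 (adjusted p = 0.00869). All 3 calls held with each array left out.

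**Figure D5:**
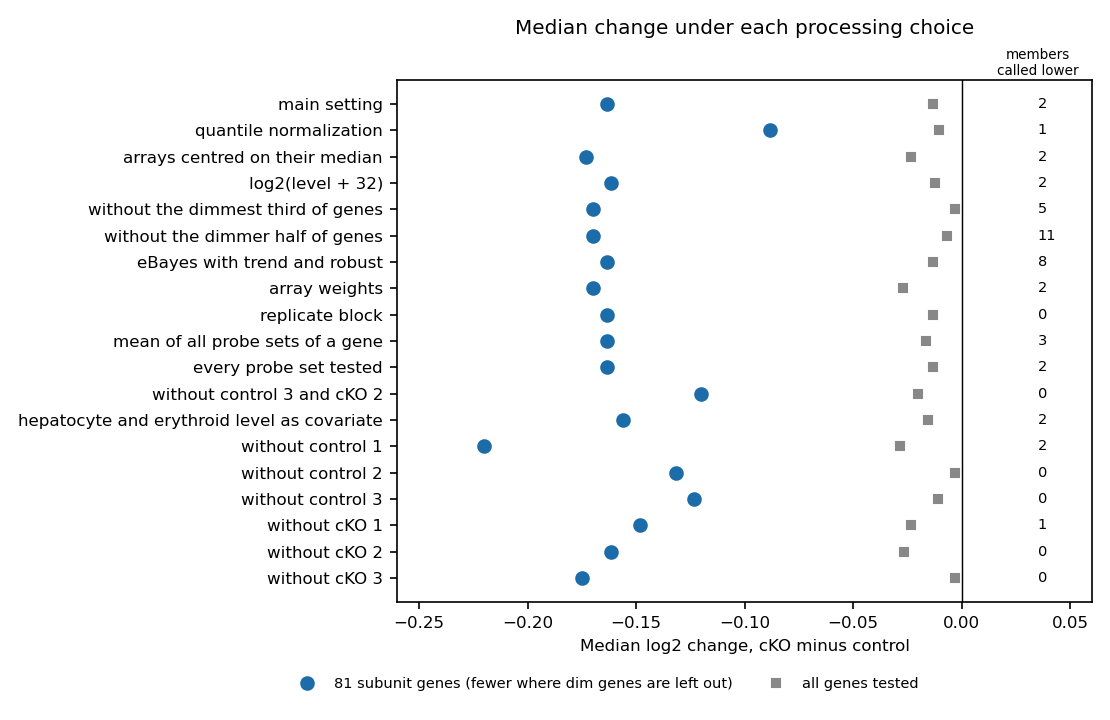
Median log2 change, cKO minus control, of the subunit genes (blue) and of all genes tested (grey) in the main setting and under each alternative, with the number of members called lower at the right. The subunit median runs from −0.22 without control 1 to −0.09 with quantile normalization, and the number called lower from 0 to 11.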

How the data were processed

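RNA of isolated small intestinal epithelial cells was hybridised to 6 Affymetrix Mouse Gene 1.0 arrays, 3 per group, with groups taken from the source names. The values are the log2 levels the authors deposited, made with dChip per the series text; for its version, background correction and normalization the sources used here give nothing. The log base was read from the values (0 to 14.25), and centring is unknown (array medians 7.73 to 7.84). Scanner files were not used here. Of 35512 probe sets, 21789 have 1 gene in the platform annotation, 1621 several and 12102 none. Symbols were checked by gene ID against RefSeq (GRCm38.p6), where 21698 matched. For each gene the probe set with the highest mean was kept, with no filter on dim genes. A probe set cannot separate transcripts or near-identical copies, which are common for these subunits.

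The group comparison used limma 3.58.1 under R 4.3.3 (a two-sided moderated test from lmFit and eBayes) on the deposited log2 values, with Benjamini-Hochberg adjustment over 19938 genes and a threshold of 0.05. The procedure was tested on simulated data. Promoter windows are RefSeq's.

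The members and the gene lists were chosen with earlier results of these data known. Genes named are, per complex, up to 6 members past the threshold and those with the highest and lowest change, a fixed set of core subunits and isoforms, 8 regulators, and up to 4 called genes of each other list. Others given with values (among them Atp5h, Cyc1, Cycs, and further module members) were chosen after their values were seen. Alternatives were other scalings, filters, variance models, probe set rules, a replicate block, a covariate of hepatocyte and erythroid level, and arrays left out. Across genes, deviations of same-numbered control and cKO arrays from their group means correlated at −0.015, −0.425 and −0.184, so the numbers were not taken as pairs. No 2 arrays held the same values. The number of arrays limits the precision.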

Additional observations from a re-analysis of the deposited data

How the results depend on the processing

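In the main setting 2 subunit genes were called lower. This count was 1 with quantile normalization (6.31% of all genes called lower) and 8 with a trended and robust eBayes (8.42%). It was 5 with only the 13284 brightest genes (78 members tested) and 11 with only the 9964 brightest (74 tested). Without control 3 and cKO 2 it was 0 (4.4% of all genes). With 1 array left out it ran from 0 to 2, where 4.23% to 6.63% of all genes were called lower. With the replicate number as a block it was 0, beside 4.15% of all genes, with 19 members at an unadjusted p under 0.05 under limma. The share of all genes at that p was not counted for the block. No label says whether the numbers pair the samples. The filters adjust over fewer genes, and their percent of all genes called lower was 12.2 and 15.7. The count called higher was 0 under every alternative run. The median member change was −0.0883 with quantile normalization and −0.12 without control 3 and cKO 2, and with 1 array left out it ran from −0.22 to −0.12. It stayed below 0 under every alternative run. Among the named members, 14 of their alternatives gained a call, 15 lost one (9 of Ndufv3 and 6 of Cox7a1) and 555 left the side of the threshold as it was. Levels near background could not be told from it, since no detection calls were used here.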
